A study of Mus musculus and Mus musculus
Rattus norvegicus with 30 samples.

Results

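The data described here are the mRNA profiles of 6 mouse embryonic stem cell (mESC) lines that differ, in matched pairs, by a single amino acid of the transcription factor Cdx2. That difference, called change 1, replaces a tyrosine with a phenylalanine in the DNA binding domain. The libraries were chosen by the constructs named in the sample labels, and they are 12 of the 30 samples of the series. The study compared mouse Cdx2 (mCdx2) with rat Cdx2 (rCdx2), and put the 3 residues that set the mouse protein apart into the rat protein singly and in combination. Change 2 replaces an alanine with a serine and change 3 removes an asparagine. R12 carries changes 1 and 2 and was paired with R2, which carries change 2. R13 carries changes 1 and 3 and was paired with R3, which carries change 3. R123 carries all 3 changes and was paired with R23, which carries changes 2 and 3. Each line had 2 libraries, replicate 1 and replicate 2, so that 6 libraries with change 1 were set against 6 without it.

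What all 6 lines share is overexpression (OE) of a Flag-tagged rCDX2 mutant in mESC from a lentiviral Tet-On vector, in which doxycycline (DOX) switches the transgene on. The DOX dose and time are given in the sources used here for the unmutated mouse and rat proteins, not for these mutants. The sources used here speak of stable lines and name no more than 1 for a construct, so the construct and whatever else may separate its cells from the matched cells cannot be told apart. No source used here says whether the replicates came from separate cultures, and the p-values therefore measure only the spread between these libraries, which may be technical.

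Cdx2 is a caudal-type homeodomain protein that binds AT-rich sites. It directs the outer cells of the mouse embryo to the trophectoderm, the layer that makes the placenta, and later patterns the posterior body axis and the intestine together with the Hox genes. In embryonic stem cells, forced Cdx2 is known to lower pluripotency genes such as Pou5f1 and to raise trophoblast genes such as Gata3, Krt8 and Krt18. Phenylalanine differs from tyrosine only by lacking a hydroxyl group.

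The mouse gene encodes the residue that change 1 introduces, and its codon is shown because every comparison below turns on that residue. The stretch is read from the GRCm38.p6 genome with the RefSeq annotation, at chr5:147303211-147303285 on the minus strand, within coding exon 2 of 3 of Cdx2. It was located as the only position of 60 compared homeobox codons at which mouse Cdx2 encodes phenylalanine and its relative Cdx1 encodes tyrosine. The capitals mark codon 206 of 311, which encodes that phenylalanine, and the constructs compared here placed the same residue in the rat protein.
Cdx2 homeobox, change 1: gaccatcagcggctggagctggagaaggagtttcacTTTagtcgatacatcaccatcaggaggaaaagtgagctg

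The libraries held 12698443 to 20287800 counts on 19919 genes, and 14323 genes had enough counts to be tested. Cdx2 itself was checked first in every library. It stood at 147 and 61.7 CPM (counts scaled to a common library size by the TMM method) in the replicate 1 and replicate 2 libraries of R2, and at 144 and 60.5 in those of R12. The values were 94.1 and 44.2 in R3 and 76.7 and 37.1 in R13, and 65.1 and 38.4 in R23 and 61.5 and 38.9 in R123. The ranges of the matched lines overlapped in every pair, but replicate 2 was below replicate 1 in every line, which widens those ranges. Between libraries of the same replicate number, Cdx2 was lower with change 1 except in replicate 2 of R123 against R23. The fitted difference for change 1 was -0.11 on the log2 scale, with a 95% interval of -0.23 to 0.0022 and an adjusted p of 0.436 (edgeR quasi-likelihood test). By pair it was -0.02 for R12 against R2, -0.28 for R13 against R3 and -0.05 for R123 against R23. These counts pool reads of the transgene that align to the mouse gene with reads of the mouse gene itself.

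**Figure D1:**
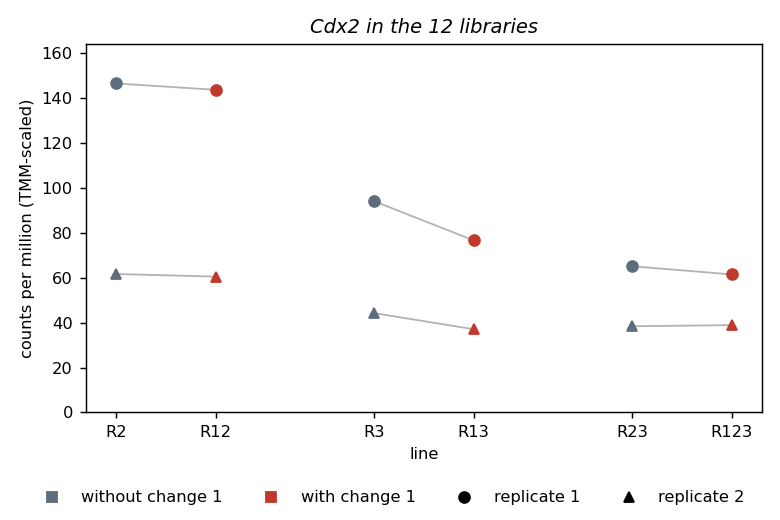
Cdx2 level in CPM (vertical axis) in each of the 12 libraries, by line (horizontal axis). Circles are replicate 1, triangles are replicate 2, red marks lines with change 1, and grey lines join matched libraries; the R2 and R12 lines sit above the other 4 lines in each replicate, and every replicate 2 sits below its replicate 1.

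The cell type named by the labels was checked against its markers. Pou5f1, the POU factor that holds embryonic stem cells undifferentiated, lay at 637 to 939 CPM and Nanog, its partner in the same network, at 686 to 966 CPM over the 12 libraries. Elf5, which marks committed trophoblast stem cells, had at most 8 counts in any library. Eomes, another trophoblast stem cell factor, did not exceed 5.95 CPM. The mesenchymal collagen Col1a1 lay at 0.830 to 3.22 CPM and Col3a1 had 1 count in all libraries together. Other members of these lists were well above such levels. On the trophoblast stem cell list, of which 18 of 19 members were tested, Tfap2c lay at 80.6 to 90.3 CPM and Ets2 at 52.8 to 76.9 CPM. On the list of fibroblasts and feeders, of which 6 of 11 were tested, fibronectin Fn1 lay at 2022 to 2989 CPM and vimentin Vim at 59.0 to 101 CPM, and the list summed to 2320 to 3059 CPM with change 1 and 2130 to 2926 CPM without it. The part of such cells in the results was not tested.

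With all 3 pairs fitted together, with the pair and the replicate number as blocks, 29 of the 14323 genes were called for change 1, meaning a Benjamini-Hochberg adjusted p under 0.05. That is 0.202% of the genes tested. Of these, 9 (0.0628%) were higher and 20 (0.140%) were lower with change 1. The count depends on the libraries and the blocks: it was 11 without R12 replicate 2, 186 without R23 replicate 2 and 3 with no replicate block. With the replicates of each line summed to 1 sample it was 21, of which 18 were among the 29. The epithelial keratins Krt8 and Krt18, the trophoblast factor Gata2, the DNA methylation cofactor Dnmt3l and the imprinted gene Peg10 were among the lower genes, and Reep6 and Ank3 among the higher ones. The effects were small. Among the 11102 genes that averaged 50 counts or more per library, the largest change was 0.65 on the log2 scale, for Myc, and the 95% interval of every one of them lay within a 2-fold change in either direction. The intervals of 98.2% of those genes lay within 0.5 on the log2 scale. Only 1 called gene changed more than 2-fold, the predicted gene Gm10800. It had 443 counts in the replicate 2 library of R3 and 2 to 36 in the other libraries, so that a single library held most of its counts.

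Change 1 was a minor part of the variation among the 12 libraries. Over those 11102 genes, the pair to which a library belongs, that is the background of changes 2 and 3 and the lines that carry them, took 59.5% of the sum of squares of log2 CPM. The replicate number took 15.4%, change 1 took 5.02% and the interaction of pair and change 1 took 7.0%. The edgeR fit over all 14323 genes tested, which has no interaction term, called 7353 genes (51.3%) for the pair. It called 3119 (21.8%) for the replicate number, beside the 29 for change 1. The replicates of R23 and R123 differed more than those of the other lines. The median squared difference between replicates was 6.91 times the counting noise in R23 and 5.84 times in R123, against 2.98 to 3.25 times in the other 4 lines. Without this pair, 760 genes were called for change 1, and the 29 genes were all among them.

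Krt8 and Krt18, the partner keratins of simple epithelia and of the trophectoderm, fell with change 1, with lower levels in all 3 pairs. Krt8 stood at 85.0 and 86.5 CPM in R2 and 52.6 and 56.4 in R12, at 38.1 and 40.0 in R3 and 28.2 and 28.3 in R13, and at 35.1 and 37.8 in R23 and 32.5 and 27.4 in R123. In each pair both libraries with change 1 were below both libraries without it, although the R12 values were above all those of R3 and R23. The fitted fall was 0.49 on the log2 scale (95% interval -0.60 to -0.38, adjusted p = 3.67e-06), or 28.7%. Krt18 stood at 85.8 and 89.2 CPM in R2 and 56.7 and 57.8 in R12, at 43.7 and 44.2 in R3 and 30.2 and 32.8 in R13, and at 50.3 and 40.5 in R23 and 40.5 and 36.2 in R123. It fell by 0.45 on the log2 scale (95% interval -0.56 to -0.34, adjusted p = 1.77e-05), and the groups again did not overlap in any pair. In the last pair this was nearly a tie, since R23 replicate 2 and R123 replicate 1 both stood at 40.5 CPM after rounding. In bulk libraries such as these, fewer cells of a type and less RNA per cell cannot be told apart.

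Of the other measured keratins of simple epithelia, Krt19 had a difference of -0.58 that did not pass (adjusted p = 0.0617), with lower values in all 6 matched library pairs. Krt7 was lower in R12 than in R2 by 0.59 on the log2 scale (adjusted p = 0.0118) but was not called over the 3 pairs (-0.31, adjusted p = 0.121). Krt42 was the only tested member of the list with a difference above 0, and the median of the 5 tested members was -0.45, against 0.000128 over all genes tested.

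Gata2, a zinc finger factor of trophoblast and blood progenitors, fell by 0.50 on the log2 scale over the 3 pairs. It stood at 39.2 and 36.8 CPM in R2 and 30.0 and 24.6 in R12, at 17.2 and 15.8 in R3 and 11.7 and 12.0 in R13, and at 18.1 and 16.7 in R23 and 11.1 and 12.2 in R123. The libraries with change 1 were below their matched libraries throughout, without overlap in any pair. The difference was -0.48, -0.47 and -0.58 in the 3 pairs, and the fall over all of them had a 95% interval of -0.63 to -0.38 (adjusted p = 1.77e-05). Gata3, a close relative in the trophectoderm, was not called and had a difference of -0.36 with an interval of -0.66 to -0.06. Krt8 and Gata2 were the only named genes called in every one of the 28 alternative fits.

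**Figure D2:**
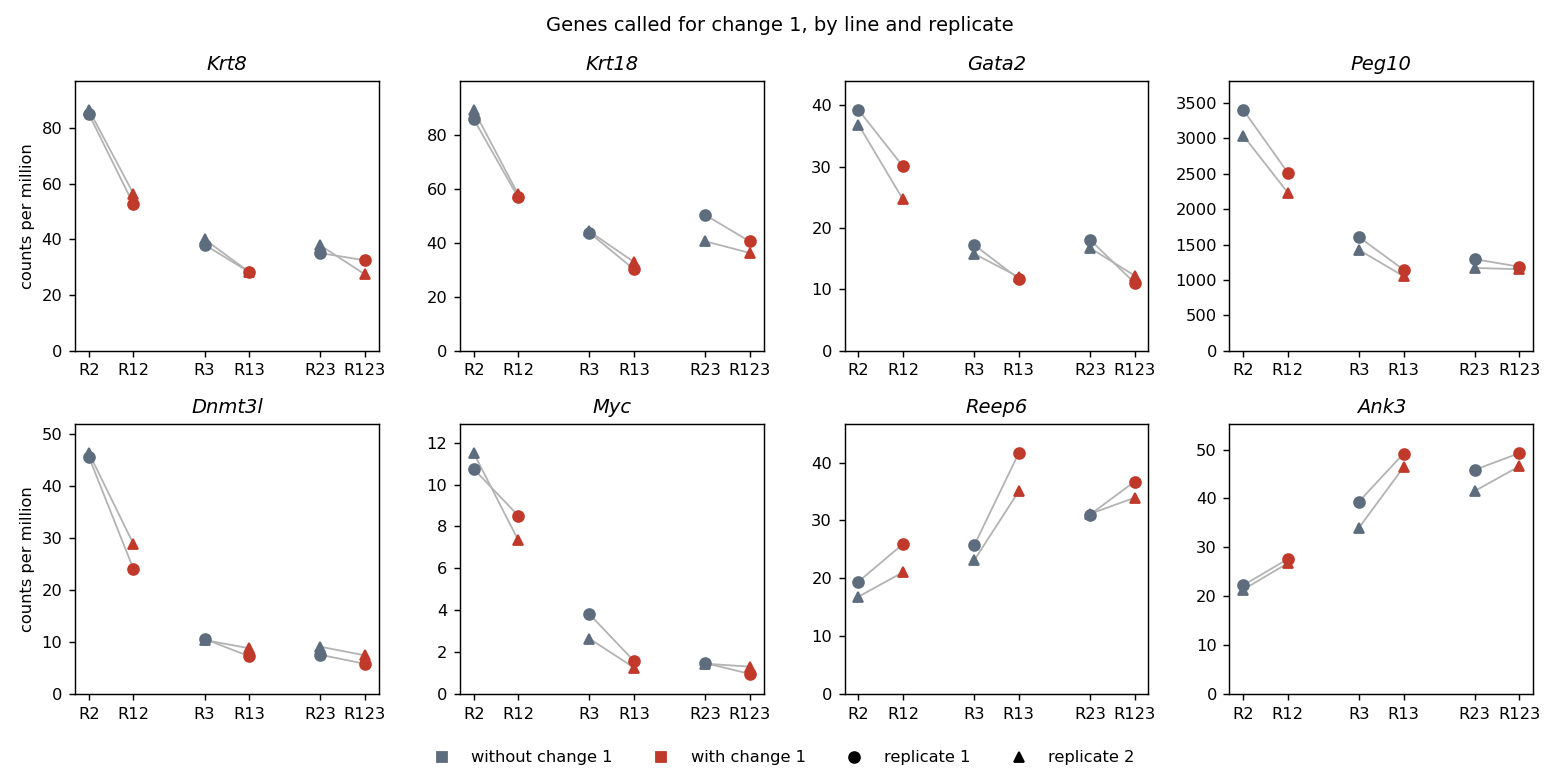
Level in CPM (vertical axes, each from 0) of 8 genes called for change 1, by line (horizontal axes). Circles are replicate 1, triangles are replicate 2, red marks lines with change 1, and grey lines join matched libraries; Krt8, Krt18, Gata2, Dnmt3l and Myc are lower at the red end of every grey line, Reep6 and Ank3 are higher there, and Peg10 is nearly level between R23 and R123.

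The Cdx2 binding site nearest to the Krt8 start is shown because Krt8 was the gene with the smallest adjusted p. The peaks come from chromatin immunoprecipitation of unmutated mouse and rat Cdx2 in mESC, merged by the authors. No binding data for the 6 lines compared here were analysed. The peak spans chr15:102007482-102007855 and its centre lies 3186 bases upstream of the Krt8 start, outside any annotated exon and within the predicted gene Gm36026. Its central 300 bases on the plus strand, chr15:102007518-102007817 of GRCm38.p6, are printed with each TTTAT, on either strand, in capitals. This core of the letters that Cdx factors prefer occurs 2 times here, both on the minus strand, and in 95.2% of 300-base windows centred on Cdx2 peaks against 40.9% of promoters of that length. The longer form TTTATNG is not in this window, and it is in 54.8% of the peak windows and 11.3% of the promoters. Most Cdx2 peaks of the study lie outside promoters, and the part of base composition in these differences was not tested. The peak nearest to the Gata2 start, which is not printed, held neither form on either strand in its 255 bases.
Krt8 upstream peak: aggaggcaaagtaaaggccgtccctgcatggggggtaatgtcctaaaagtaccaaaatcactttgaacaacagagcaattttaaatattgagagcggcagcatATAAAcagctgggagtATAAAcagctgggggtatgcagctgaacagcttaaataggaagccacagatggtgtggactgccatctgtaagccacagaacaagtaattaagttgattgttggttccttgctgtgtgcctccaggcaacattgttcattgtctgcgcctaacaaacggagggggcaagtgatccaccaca

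Genes of DNA methylation and imprinting were among those that fell. Dnmt3l, the inactive partner that stimulates the de novo DNA methyltransferases, stood at 45.6 and 46.4 CPM in R2 and 24.1 and 28.9 in R12, at 10.6 and 10.4 in R3 and 7.25 and 8.80 in R13, and at 7.53 and 9.09 in R23 and 5.80 and 7.42 in R123. It fell in all 6 matched library pairs, by 0.59 on the log2 scale over the 3 pairs (95% interval -0.74 to -0.43, adjusted p = 5.88e-05). Dnmt3b, one of the active enzymes, fell by 0.21 (adjusted p = 0.0217), with differences of -0.28 and -0.35 in the first pairs and 0.01 in R123 against R23. The other 7 tested members of the methylation and Tet list, among them the maintenance enzyme Dnmt1 and the oxidase Tet1, were not called. Over all genes, 0.140% were called lower.

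Peg10, an imprinted gene of retrotransposon origin that the placenta needs, had the highest counts of the called genes. It stood at 3401 and 3039 CPM in R2 and 2516 and 2233 in R12, at 1605 and 1423 in R3 and 1144 and 1053 in R13, and at 1292 and 1169 in R23 and 1187 and 1151 in R123. The libraries separated in the first pairs and overlapped in the last. It fell by 0.33 over the 3 pairs (adjusted p = 5.57e-05), with -0.44, -0.46 and -0.07 in the single pairs, and the difference between pairs was itself called (adjusted p = 0.000888). H19, the maternally expressed imprinted RNA, fell by 0.28 (adjusted p = 0.0015) in the same manner, with -0.46, -0.38 and 0.01 in the 3 pairs. Of 22 tested imprinted genes these were the only members called, against 0.140% of all genes lower, and the median of the list was -0.05.

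Among the named genes the largest fall by fold was that of Myc, the growth-promoting transcription factor. Myc stood at 10.8 and 11.5 CPM in R2 and 8.52 and 7.35 in R12, at 3.81 and 2.64 in R3 and 1.57 and 1.26 in R13, and at 1.48 and 1.44 in R23 and 0.955 and 1.30 in R123. The matched lines did not overlap, although R2 and R12 stood above all 8 libraries of the other lines. Its change was -0.65 (95% interval -0.93 to -0.37, adjusted p = 0.0276), and it stayed between -0.86 and -0.47 in 28 alternative fits, in 13 of which it was not called.

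The other genes that fell belong to several functions. Dsc2, a desmosomal cadherin, fell by 0.47 on the log2 scale, Anxa3, a membrane-binding annexin, by 0.46, and Cited1, a transcriptional co-regulator expressed in trophoblast, by 0.46. Eef2k, the kinase that slows translation elongation, fell by 0.35. The tubulin Tubb3 fell by 0.33 and the anion exchanger Slc4a2 by 0.30. The remaining named genes fell by 0.15 to 0.26, namely the phosphatase Ptpn14, the glycan-branching enzyme Mgat5, the zinc finger gene Zfp462, the glucose transporter Slc2a1 and the giant muscle protein gene Ttn. Their adjusted p-values ranged from 0.00121 for Eef2k to 0.0441 for Tubb3. Eef2k was the only one of the 29 that was not also called for the pair.

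Fewer genes rose. Reep6, which helps to shape the endoplasmic reticulum, stood at 19.4 and 16.8 CPM in R2 and 25.9 and 21.1 in R12, at 25.7 and 23.1 in R3 and 41.6 and 35.1 in R13, and at 31.0 and 31.1 in R23 and 36.7 and 33.9 in R123. It rose in every matched pair without overlap, by 0.40 on the log2 scale (95% interval 0.27 to 0.53, adjusted p = 0.00096). Ank3, which encodes the membrane scaffold ankyrin-G, rose by 0.27 (adjusted p = 0.00378), again without overlap in any pair.

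The zinc finger gene Zfp773 rose by 0.41 and the lipid kinase gene Dgkh by 0.32, and Dgkh was a gene whose effect differed between pairs (adjusted p = 0.00952). The cysteine dioxygenase Cdo1 rose by 0.24, the germ-cell bridge gene Tex14 by 0.22 and the glutamine transporter Slc1a5 by 0.17. The next genes in rank, Ubap1l, Nupr1, Fam45a and Nemp1, did not pass (adjusted p 0.0587 to 0.0622).

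Across the 29 genes, 27 had the same direction in all 3 pairs, as did 29.0% of all genes tested, and 24 had it in all 6 matched library pairs, as did 7.08% of all genes (3.56% higher and 3.52% lower). In 14 of the 29 the CPM of matched lines did not overlap in any pair, as in 1.47% of all genes. The 29 were picked by the fit to these same libraries, which favours genes that agree between pairs. These counts, and the calls in single pairs that follow, therefore describe the list and are no separate support for it. None was called in R123 against R23 alone, where 0.00698% of all genes were. In R12 against R2 12 were called, against 0.307% of all genes, and in R13 against R3 19, against 2.26%. The pairs thus differed in the same order in calls over all genes. The largest of the 3 pair effects was in R12 for 12 genes, in R13 for 15 and in R123 for 2. With the log2 CPM of Cdx2 added to the fit, 24 genes were called, 16 of them among the 29. The log2 changes of the 27 named genes then kept their direction and were 63.9% to 121% of their size without it.

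**Figure D3:**
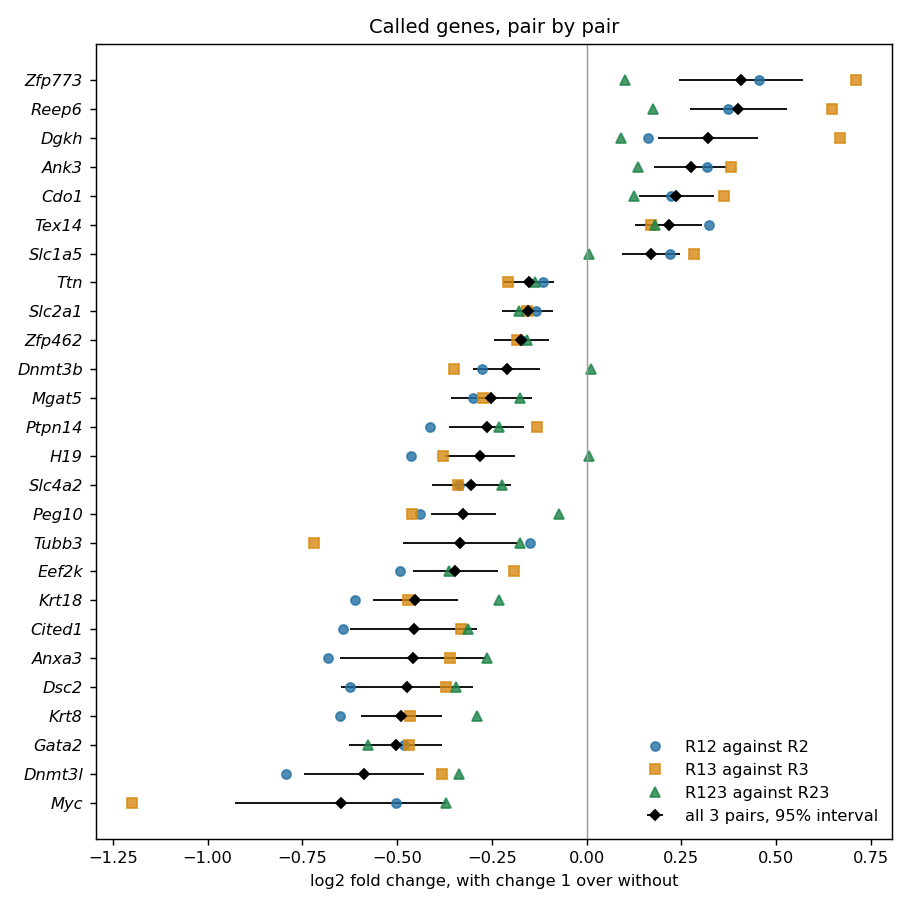
Log2 fold change, with change 1 over without (horizontal axis), of the called genes named in the text (vertical axis). Black diamonds with 95% intervals are the fit over 3 pairs, and coloured points are the single pairs; for most genes the green triangle of R123 against R23 is the point nearest to 0, and the points of Gata2, Zfp462 and Slc2a1 lie close together.

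Gene lists for the processes that Cdx2 is known for, and for general cell functions, were followed in the same fit. Of the 18 tested trophoblast stem cell markers, 3 were lower with change 1, Gata2, Krt8 and Krt18, and none was higher, against 0.140% of all genes lower. The median of the list was -0.16 and 12 members were negative. The tested members that were not called included Eomes (0.04), Tfap2c (0.01), Ascl2 (-0.24) and the cadherin Cdh2 (-0.02). The summed level of the list was 1358 to 1621 CPM with change 1 and 1405 to 1639 CPM without it, so the sums overlapped. Most of that sum came from Esrrb, at 665 to 832 CPM, and Sox2, at 265 to 366 CPM. The overlap of the sums therefore says little of the other members. Among the 5 tested markers of differentiated trophoblast, Peg10 was the only call, against the same 0.140%.

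None of the 7 tested Hoxa genes was called, against 0.202% of all genes, and their median was -0.15. At that share a list of this size would usually hold no call, so its absence says little. Hoxa7 had -0.15 with an interval of -0.33 to 0.02, and Hoxa9 -0.21 with -0.36 to -0.05. At this depth Hoxa5 and Hoxa13, with means of 11.8 and 8.33 counts, had intervals of -0.57 to 0.82 and -0.51 to 0.98, so that a 1.5-fold rise in them was not detectable. No tested gene of the Hoxb, Hoxc or Hoxd clusters was called, against the same 0.202%. No TALE cofactor, the homeodomain partners of Hox proteins, was called either.

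Pluripotency genes had differences close to 0. Pou5f1 had 0.01 with an interval of -0.05 to 0.06, Sox2 0.06 with -0.001 to 0.13, Nanog 0.07 with 0.01 to 0.13 and Esrrb 0.01 with -0.05 to 0.07. None of the 13 tested naive genes or the 6 core genes was called, against 0.202% of all genes. Of the naive genes, 11 were above 0, with a median of 0.07. Gata6, of the primitive endoderm, had -0.14 and was not called. No call fell on the 21 nuclear genes of the respiratory chain or the 21 of cholesterol synthesis, against the same 0.202%. Nor did one fall on the 16 of the polycomb complexes or the 13 p53 targets. The medians of these lists were 0.02, 0.04, -0.01 and -0.02, in that order. Beyond the lists already given, the formative list held Dnmt3b, the neural list Tubb3, the Wnt list Myc and the glycolysis list Slc2a1. These were their only calls, all lower, against 0.140% of all genes lower, and no other list held one.

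**Figure D4:**
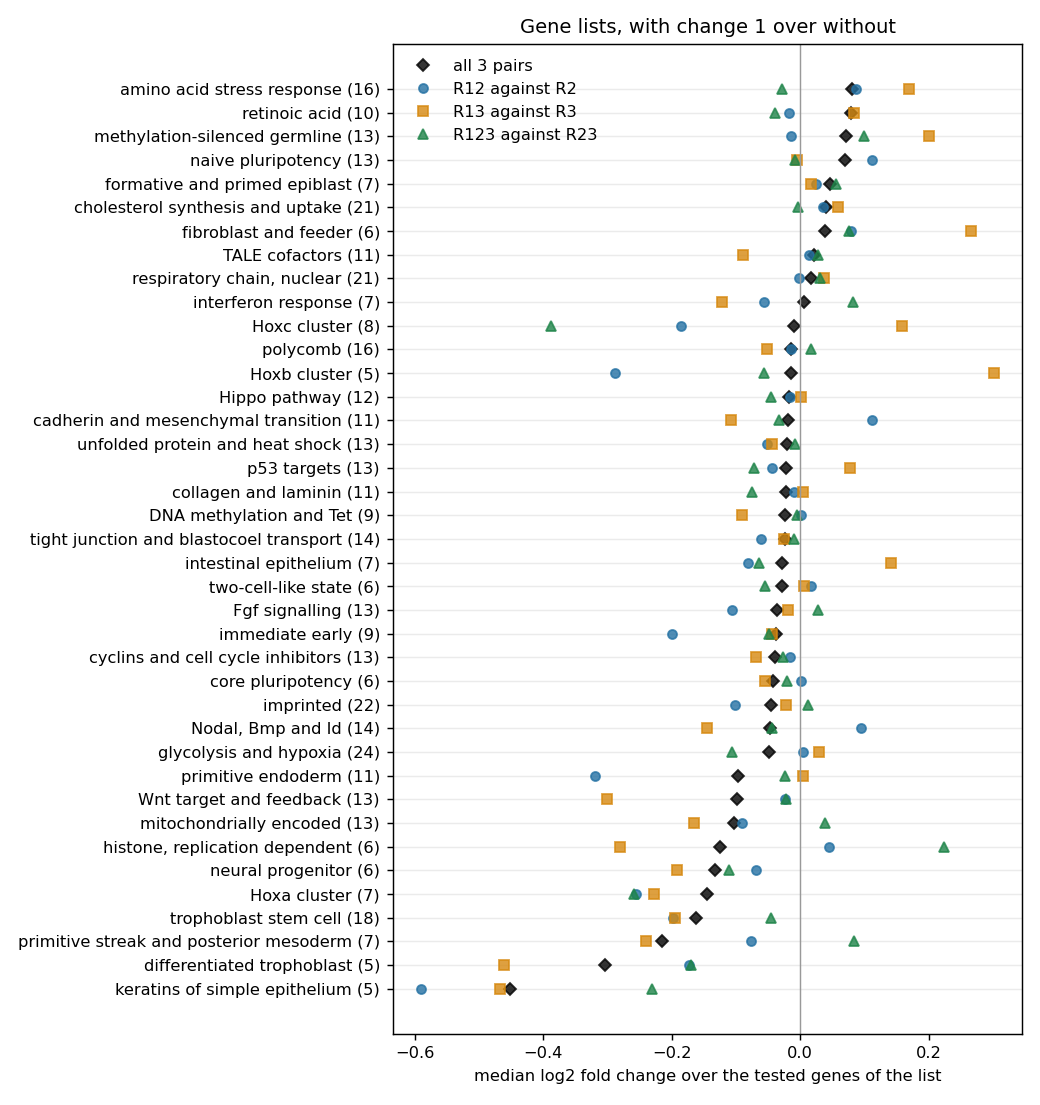
Median log2 fold change, with change 1 over without (horizontal axis), of each gene list with at least 5 tested members (vertical axis, number tested in brackets). Black diamonds are the fit over 3 pairs and coloured points are single pairs; the simple epithelial keratins lie lowest at -0.45, and most lists lie within 0.1 of 0 in the fit over the 3 pairs.

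Each pair was also tested alone, with the spread estimated over all 12 libraries. R12 against R2, in which change 1 was added to change 2, gave 44 called genes (0.307%), of which 13 (0.0908%) were higher and 31 (0.216%) lower. Lefty2, the Nodal antagonist, was 30.2 and 38.3 CPM in R2 and 49.7 and 52.5 in R12, a rise of 0.57 on the log2 scale (adjusted p = 0.000112). Vwf, the blood clotting glycoprotein gene, rose by 0.58, Fgf1 by 0.51, the fatty acid importer Cpt1a by 0.43, the naive stem cell gene Tcl1 by 0.41 and the ion pump regulator Fxyd6 by 0.39. Dnmt3l and the linker histone gene Hist1h1c fell by 0.79 each, Anxa2 by 0.75, the transporter Abca5 by 0.72, Anxa3 by 0.68 and Esx1, a homeobox gene of the placenta, by 0.68. Id2, a differentiation inhibitor of trophoblast, fell by 0.45 (adjusted p = 0.00885). Leaving out a single library of R2 or R12 gave 6 to 10 calls in this pair.

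R13 against R3, in which change 1 was added to change 3, gave 323 called genes (2.26%), 156 (1.09%) higher and 167 (1.17%) lower. Id3, an inhibitor of differentiation and a Bmp target, fell most among genes that averaged 50 counts or more, from 4.82 and 5.57 CPM in R3 to 1.64 and 2.31 in R13 (-1.37, adjusted p = 0.00095). The oxidase gene Enox1 fell by 1.31, the hormone precursor Trh by 1.21, Myc by 1.20, the mitochondrial leucine tRNA mt-Tl1 by 0.98 and the proton-sensing receptor Gpr4 by 0.96. Under the same limit on counts, the largest rises were in Copz2, a vesicle coat subunit (1.01), the glycosyltransferase B4galnt2 (0.97), the mitochondrial folate enzyme Aldh1l2 (0.83), Trim66 (0.80), the calcitonin gene Calca (0.79) and the stanniocalcin Stc2 (0.76).

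Calls in this pair fell on several of the lists. Of 16 tested genes of the amino acid stress response, which Atf4 directs, 5 rose, against 1.09% of all genes, with a median of 0.17 against -6.06e-05 over all genes. They were Trib3 (0.34), the asparagine synthetase Asns (0.18), the folate enzyme Mthfd2 (0.24), Ddit4 (0.60) and Nupr1 (0.49), and Atf4 itself was not called. Of 13 tested Wnt targets, 3 fell, Notum (-0.51), Ccnd1 (-0.30) and Myc, against 1.17% of all genes, and the median was -0.30. Of 14 tested genes of Nodal, Bmp and Id, 3 fell, Lefty1 (-0.63), Lefty2 (-0.36) and Id3, against the same 1.17%, and the median was -0.15. The naive genes Dppa5a and Tcl1 rose by 0.26 and 0.29, against 1.09% of all genes higher. Of the 13 naive genes, 7 were below 0 and the median was -0.0046. Of 13 mitochondrially encoded genes on the list, mt-Nd1 and mt-Cytb fell by 0.37 and 0.26, against 1.17% of all genes lower. Leaving out a single library of R3 or R13 gave 26 to 71 calls in this pair.

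The genes called in R13 against R3 lay along a difference that also separated lines outside this pair. R23 differs from R2, and R123 from R12, by change 3, which R3 and R13 both carry. Of the 323 genes, 315 (97.5%) had the same direction in R23 minus R2, which shares no library with the pair, against 71.0% of all genes. In R123 minus R12 it was 319 (98.8%), against 70.9%. Cdx2 itself had a difference of -0.93 on the log2 scale in R23 minus R2 and in R123 minus R12, and of -0.28 in R13 against R3, where it did not pass (adjusted p = 0.151). Dgkh shows the order of the lines, at 32.3 and 26.9 CPM in R2, 52.2 and 49.4 in R3, 82.3 and 78.9 in R13 and 77.0 and 67.2 in R23. The part of change 3, of Cdx2 level and of line history in these calls was not tested. R23 differs from R3, and R123 from R13, by change 2. For the 44 genes called in R12 against R2, the corresponding figure for R23 minus R3 was 28 (63.6%), against 55.4% of all genes, and for R123 minus R13 it was 13 (29.5%), against 48.6%. These comparisons of lines were chosen after values had been seen.

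R123 against R23, in which change 1 was added to changes 2 and 3, gave a single call (0.00698%), beside 714 genes at an unadjusted p under 0.05. It was Ldha, the lactate dehydrogenase of glycolysis. Ldha stood at 422 and 474 CPM in R23 and 354 and 379 in R123, and at 354 to 474 CPM over all 12 libraries. R23 was thus the line that stood above the other lines. The fall was 0.29 on the log2 scale (adjusted p = 0.00839). DESeq2 gave 1 call in this pair as well. Gata2, at -0.58, and Krt8, at -0.29, did not pass here. As given above, the replicates of this pair differed more than those of the others.

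The pairs were then compared by a test of the difference itself, an interaction of pair and change 1. It called 45 genes (0.314%), beside 1418 at an unadjusted p under 0.05. The count was 8 without R13 replicate 1, 89 without R23 replicate 1 and 0 with no replicate block. Among the named genes Lefty2 had the smallest p. It was higher in R12 than in R2, as given above, and lower in R13 (59.4 and 68.2 CPM) than in R3 (77.0 and 86.4 CPM), while R123 and R23 overlapped (adjusted p = 8.39e-05). Lefty1, the neighbouring antagonist of Nodal, did likewise, with 0.36, -0.63 and -0.06 in the 3 pairs (adjusted p = 0.00413). Trh fell in R13 and had 0.10 and 0.25 in the R12 and R123 pairs. Txnip, a regulator of glucose uptake, rose in R13 by 0.38 and had 0.03 and -0.12 in those pairs. Vwf and Fxyd6 rose in R12 and R13 but had -0.16 and -0.16 in R123. The adjusted p of the difference was 0.000888 for each of these 4 genes.

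Over the same 11102 genes, the effects in R12 against R2 and R13 against R3 correlated across genes with r = 0.305. The effects in R123 against R23 correlated with r = 0.0381 and -0.0138 with the same pairs. The pairs share no library, but genes are not independent replicates and no p is given. Of the 44 genes called in R12 against R2, 38 (86.4%) had the same direction in R13 against R3, against 57.8% of all genes, and 16 were called there too. In R123 against R23 it was 21 of the 44, and 143 of the 323 genes called in R13 against R3 (44.3%, against 50.1% of all genes).

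**Figure D5:**
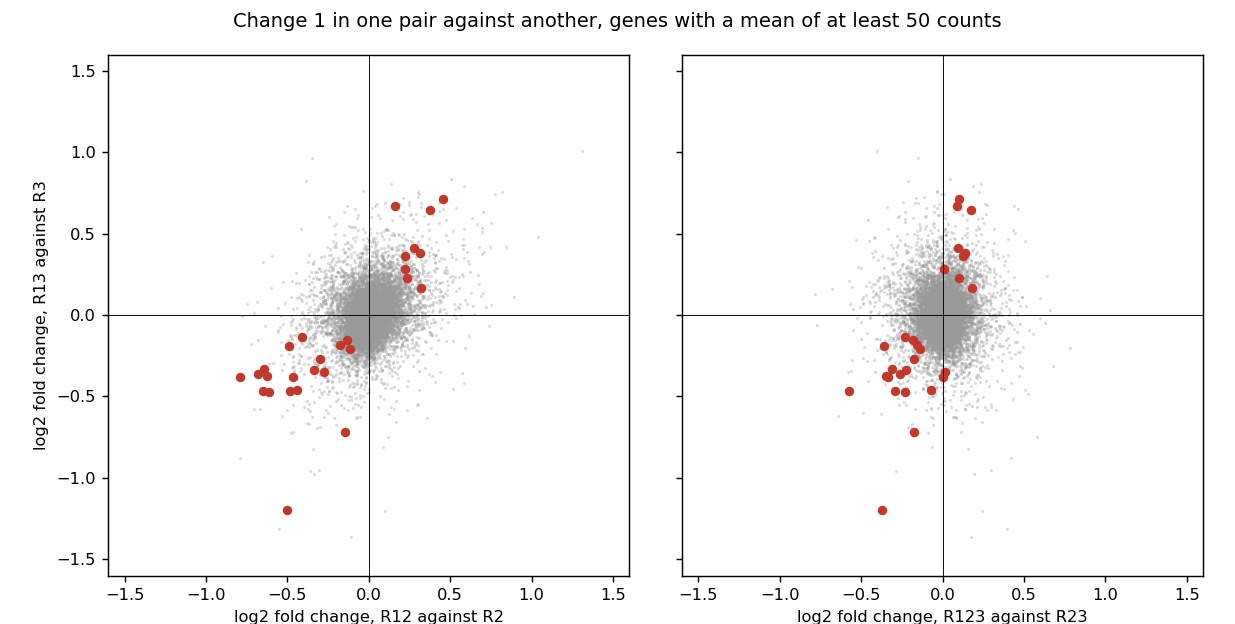
Log2 fold change of R13 against R3 (vertical axis) against that of R12 against R2 (left, horizontal axis) and of R123 against R23 (right), for genes that averaged 50 counts or more. Grey points are genes and red points those called over the 3 pairs; the cloud leans on the left, where r is 0.305, and not on the right, where r is -0.0138.

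The called genes were compared with Cdx2 binding by the number of peaks of unmutated Cdx2 within 30 kb of the gene start. Of the 29 genes, 24 (82.8%) had at least 1 peak, against 77.1% of all tested genes with a position. The share called was 0.154% of genes with no peak, 0.285% with 1, 0.186% with 2 or 3 and 0.195% with 4 or more. Within 5 kb it was 0.198% with no peak, 0.147% with 1 and 0.578% with 2 or 3, the last on 4 called genes, so the order of the shares differed between the windows. Among genes that averaged 50 counts or more, the median size of the log2 change was 0.051 with no peak within 30 kb and 0.039 with 4 or more. The median of the mean counts of these genes was 458 and 755, and the part of count level in that difference was not tested. Krt18 had 4 peaks, Krt8 and Gata2 had 2 each, and Peg10 had 6. Dnmt3l, Zfp773, Tubb3 and Slc4a2 were among those with none. Chromosome medians of the change 1 effect lay between -0.022 for chromosome 8 and 0.012 for chromosome 13.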

How the data were processed

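Poly(A) RNA of mESC lines was sequenced with a strand-specific kit. The deposited values are raw gene counts, which the authors made by aligning reads to mm10 with STAR and counting with featureCounts on Ensembl genes without pseudogenes. Per the file headers, the replicate 2 files were counted with added settings on read pairs, so the replicate number also marks a difference in counting. Only 12 RNA libraries entered. The merged table of Cdx2 peaks served for positions, and its 2 columns of per-sample values were not used.

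Counts were tested with edgeR 4.0.16 (TMM, filterByExpr, quasi-likelihood F test) in R 4.3.3, with pair, replicate number and change 1 as terms. Single pairs and the difference between pairs came from a model with 1 term per line plus the replicate number. P-values were adjusted by Benjamini-Hochberg over all genes tested. Levels are TMM-scaled CPM. The replicate number was kept as a block, since in all 15 pairs of lines the deviations of same-numbered libraries correlated (r = 0.383 to 0.635). Replicate 2 was counted with other settings in every line, so this cannot show whether same-numbered samples were matched. The fits were also run on simulated counts. These held no difference between lines beyond the pair, the replicate number and change 1, so they cannot show how such differences move the calls.

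Named genes were the 12 largest rises and falls by log2 fold change among those called for change 1 with a mean of at least 50 counts and 1 direction in all 3 pairs (filled up by smallest p where fewer passed), the 6 largest in each direction of each pair and the 8 smallest p of the difference. Genes the study followed and members of the gene lists were added, some list examples after their values were seen. The libraries, members and lists were chosen with earlier results of these data known. Alternatives were other scalings and filters, DESeq2 1.42.0, limma-voom 3.58.1, fits with replicates summed per line, without the replicate term or with Cdx2 level as a covariate, and leaving out libraries or pairs. Single genes that are withheld are not reported here.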

Additional observations from a re-analysis of the deposited data

Results flagged for a closer look

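The change 1 effect differed between the 3 pairs, by the interaction of pair and change 1, for 21 of the genes followed by name, each given with its adjusted p (edgeR quasi-likelihood test over all genes). Of the genes called over the 3 pairs these were H19 (0.000122), Peg10 (0.000888) and Dgkh (0.00952). Of the genes of single pairs they were Lefty2 (8.39e-05), Vwf (0.000888), Fxyd6 (0.000888), Trh (0.000888), Txnip (0.000888), Copz2 (0.00687), mt-Tl1 (0.00952), Cpt1a (0.0129), B4galnt2 (0.0214), Id3 (0.0294) and Ldha (0.0381). Among list members they were Lefty1 (0.00413), the hypoxia target Vegfa (0.0124), the stress genes Nupr1 (0.0126) and Ddit4 (0.0374), the imprinted gene Mest (0.0294), the mitochondrial gene mt-Cytb (0.0373) and the lactate transporter Slc16a3 (0.0375).

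In the group of 6 libraries with change 1, Cdx2 of R12 replicate 1 stood apart from the next library by 0.629 of the range of the group, just above Dixon's limit for a group of 6. This was 1 of 56 such groups examined, and chance alone sets a library apart in about 1 in 20. The group mixes lines that differ in Cdx2 level, and R2 replicate 1, its matched library, was at a similar level (147 and 61.7 CPM in R2 and 144 and 60.5 in R12).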

How the results depend on the processing

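The direction of the 27 named genes called for change 1 held in all alternatives run, and Gata2 and Krt8 kept their call in 28 of 28. Counts of calls depended on the fit. Without a filter on low counts there were 122 calls for change 1, 105 in R12 against R2, 502 in R13 against R3, 3 in R123 against R23 and 141 for the difference between pairs. With no replicate block, although same-numbered libraries deviate alike, there were 3, 0, 4, 0 and 0 in the same order (669, 363 and 596 genes at an unadjusted p under 0.05 for the counts of 0). With a replicate block for each pair there were 98 for change 1. DESeq2 gave 24 in R12 against R2 and 149 in R13 against R3. Over the 3 pairs, leaving out R12 and R2 gave 3 calls, R13 and R3 gave 9, and R123 and R23 gave 760. A threshold of 2-fold left 1.

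Leaving out replicates gave 8 to 186 calls for change 1, 6 to 79 in R12 against R2, 26 to 526 in R13 against R3, 0 to 2 in R123 against R23 and 8 to 89 for the difference. For change 1, a library of R23 or R123 left out raised the count (78 and 186 without R23 replicates 1 and 2, 122 and 106 without those of R123). It was 15 without R2 replicate 1, 19 without R2 replicate 2, 11 without R12 replicate 2, 17 without either library of R3, and 18 and 16 without those of R13. R12 against R2 had 79 and 78 calls without R23 replicates 1 and 2. R13 against R3 had 524 and 526 without those, and 213 and 214 without R2 replicates 1 and 2. R123 against R23 had 0 without R23 replicate 2 or either library of R123. The difference had 8 and 10 without the libraries of R13, 21 and 17 without those of R3, 28 and 26 without those of R2, 26 without R12 replicate 1, 28 without R123 replicate 1 and 89 without R23 replicate 1. The cause was not tested. Leaving out a whole replicate number leaves no residual for single pairs, so that was not run. Depth limits the rarer genes: 81.1% of all 14323 intervals lay within 0.5 on the log2 scale.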

Other observations

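In R13 against R3, of 22 tested imprinted genes 1 was called higher and 4 lower, against 1.09% and 1.17% of all genes. Meg3, a maternally expressed non-coding RNA, rose by 0.16 on the log2 scale, whereas Mest fell by 0.47 and Phlda2, a growth-restraining gene of the placenta, by 0.63, beside H19 (-0.38) and Peg10 (-0.46). Of 24 tested genes of glycolysis and hypoxia, 2 were called higher, Pfkp (0.21) and Vegfa (0.40), and 1 lower, Pgam1 (-0.22), against the same shares. Lama1, a basement membrane laminin, rose by 0.25 and was the only call of 11 tested collagen and laminin genes, against 1.09% of all genes higher. No gene of these lists other than Ldha was called in R123 against R23, where 0.00698% of all genes were.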
